A study of Mus musculus with 23 samples.

Results

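The 10 genes described here make up the Isg15 conjugation system and a set of interferon-induced genes around it: Isg15 itself, its conjugating enzymes Uba7, Ube2l6 and Herc6, its removing enzyme Usp18, the poly(ADP-ribose) polymerase (Parp) family members Parp9, Parp12 and Parp14, and the ubiquitin ligases Dtx3l and Rnf213. They were taken by symbol from a deposited table of 32793 gene rows, and all 10 symbols had a row. They were chosen by their counts on differentiation days 3 and 6, where most were higher in cells labelled Runx1KO than in control cells. Values that involve days 3 or 6 are therefore given as a description without a test. Tests are confined to growth medium (day 0), day 1 and the step between them.

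Isg15 is a ubiquitin-like protein that interferons induce and that is attached to other proteins in a cascade parallel to that of ubiquitin. Uba7 is its E1 activating enzyme, Ube2l6 its E2 carrier and Herc6 the main E3 ligase in the mouse, while Usp18 takes Isg15 off again and also binds the type I interferon receptor and dampens its signal. Parp9 and Dtx3l form a complex that couples ADP-ribosylation with ubiquitin transfer, Parp12 and Parp14 attach single ADP-ribose units to proteins, and Rnf213 is a very large ubiquitin ligase. In skeletal muscle cells these genes are usually low unless interferon signalling is active.

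The study sequenced poly(A) RNA of C2C12 in 23 libraries. This line of mouse myoblasts divides while serum is plentiful, and its cells fuse to form myotubes after serum withdrawal. The cells carried either no stated change (control, here WT) or the label Runx1KO, and were taken on day 0 in growth medium with 20% fetal bovine serum or on days 1, 3 or 6 in medium with 2% horse serum. WT day 0 had 2 libraries and each of the other 7 groups had 3. The sample titles give day 6 for the last time point and the series text gives day 5, and the titles were followed. The labels do not say how Runx1 was disrupted, whether the labelled Runx1KO cells are 1 clone or several, or whether the replicates were separate cultures, so p-values measure the spread between these libraries, which may be technical. The labelled Runx1KO libraries had more Runx1 mRNA than the WT libraries on every day, by 0.51 ± 0.0944 (log2 fold change ± SE, edgeR adjusted p = 0.000362) on day 0 and 0.35 ± 0.083 (adjusted p = 0.00151) on day 1, so gene-level Runx1 mRNA went against the label. Genotype is therefore given below only as the labels state it, and "labelled KO" stands for a library labelled Runx1KO.

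Each library held between 22197606 and 23684077 estimated counts, and 14187 genes passed the filter on low counts. The muscle marker Des was present at 985 to 2971 CPM (counts per 1e+06 of the scaled library size) and Myod1 at 133 to 538 CPM in the 23 libraries. The second labelled KO library of day 1 stood apart from its replicates: the SD of its log2 deviation from them over genes was 0.465, against 0.157 to 0.287 in the other libraries. For the 10 genes, the calls that rest on it are given with and without it, while the day 1 values of the wider pathway lists and markers include it. RNA came from bulk cultures, in which fewer cells of a type and less RNA per cell cannot be told apart.

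The upstream windows of 3 of the 10 genes are shown first, because these genes took different courses: Isg15 was lower in labelled KO on day 0 and 17.3-fold higher on day 6, Dtx3l was not called on day 0 and was 2.64-fold higher on day 6, and the day 6 groups of Ube2l6 overlapped. RefSeq promoter windows (build GRCm38.p6, from 250 bases before to 50 bases after the start site) were matched by symbol for 7 of the 10 genes, namely Isg15, Uba7, Ube2l6, Herc6, Dtx3l, Parp12 and Rnf213. The windows of Isg15 (chr4:156200769-156201068, minus strand), Dtx3l (chr16:35938978-35939277, minus strand) and Ube2l6 (chr2:84798578-84798877, plus strand) are written 5′ to 3′ on the strand of the gene. Capitals mark matches to GAAA, any 2 bases and GAAA, the core of the interferon-stimulated response element.
Isg15: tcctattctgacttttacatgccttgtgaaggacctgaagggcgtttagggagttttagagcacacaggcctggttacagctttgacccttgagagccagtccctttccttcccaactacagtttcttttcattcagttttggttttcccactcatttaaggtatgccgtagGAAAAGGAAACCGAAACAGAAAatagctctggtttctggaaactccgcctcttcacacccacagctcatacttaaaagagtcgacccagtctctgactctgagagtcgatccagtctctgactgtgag
Dtx3l: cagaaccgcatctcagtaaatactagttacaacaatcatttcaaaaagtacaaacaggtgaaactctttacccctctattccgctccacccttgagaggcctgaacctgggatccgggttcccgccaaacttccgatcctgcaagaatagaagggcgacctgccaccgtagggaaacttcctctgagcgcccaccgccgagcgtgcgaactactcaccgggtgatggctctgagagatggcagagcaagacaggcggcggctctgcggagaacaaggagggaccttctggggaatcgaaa
Ube2l6: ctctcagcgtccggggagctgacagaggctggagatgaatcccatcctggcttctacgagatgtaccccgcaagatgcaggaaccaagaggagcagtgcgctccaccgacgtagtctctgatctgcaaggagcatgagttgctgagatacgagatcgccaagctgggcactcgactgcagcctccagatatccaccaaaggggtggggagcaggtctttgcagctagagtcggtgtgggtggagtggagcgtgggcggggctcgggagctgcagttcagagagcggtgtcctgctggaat
That core matched in 1 of the 7 windows, that of Isg15, where 3 matches overlapped one another, starting 78, 72 and 66 bases before the start site. Over all 32851 promoter windows of this length, 3.44% held it on either strand. TTCNNNGAA, the core of the gamma-activated site, was in 8.3% of all windows and TGTGGT, the Runx core, in 16.8%, and each was in 0 of the 7. With matches to 1 motif only, none could overlap a match to another. A match describes letters only, and the absence of one covers only this window.

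For Isg15 and Parp14 labelled KO was below WT early and above it late. Both were lower in growth medium, and on day 1 Isg15, Ube2l6 and Parp14 were lower and Herc6 higher. On day 3 and more so on day 6 the labelled KO libraries held the higher values for most of the set, with Isg15 17.3-fold above WT on day 6. Ube2l6, the E2 enzyme, was already the most abundant of the 10 and stayed near its WT level on day 6.

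Isg15, the modifier itself, stood at 1.76 and 1.81 CPM in the WT libraries of day 0 and at 0.681, 0.607 and 0.278 CPM in labelled KO, with no overlap. On day 1 it was 1.87, 1.78 and 1.88 CPM in WT and 0.857, 0.586 and 0.761 CPM in labelled KO, again without overlap. The log2 fold change was −1.76 ± 0.34 (adjusted p = 0.000600) on day 0 and −1.33 ± 0.283 (adjusted p = 0.000609) on day 1. The order was the opposite on day 3, when WT gave 3.92, 3.47 and 3.38 CPM and labelled KO 26.4, 18.2 and 22.4 CPM. On day 6 WT gave 4.77, 4.48 and 3.27 CPM and labelled KO 56.8, 78.8 and 81.2 CPM, a log2 difference of 4.11 ± 0.168. The labelled KO mean of day 6 was 139 times that of day 0, and 30.9% of it had been reached on day 3.

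Usp18, the enzyme that removes Isg15, was at the limit of detection early on. It had at most 2 counts in any library of days 0 and 1, at or under the floor of 3 counts, so no fold is given there. WT libraries held 2, 1 and 4 counts on day 3 and 5, 4 and 5 counts on day 6. Labelled KO libraries held 247, 95 and 187 counts on day 3 and 834, 1205 and 1111 counts on day 6. The ratio of labelled KO to WT, from summed counts, was 78.2 on day 3 and 228 on day 6, on 7 and 14 summed WT counts. These ratios are a description only, since both days chose the gene. Usp18 passed the low-count filter only through the 6 labelled KO libraries of days 3 and 6. Its day 3 level in labelled KO was 17.4% of its day 6 level.

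Uba7, the E1 enzyme, did not differ detectably between genotypes at first and rose on day 1 in both. Day 0 values were 1.23 and 0.787 CPM in WT and 0.907, 0.7 and 0.371 CPM in labelled KO, and on day 1 they were 4.42, 4.07 and 4.02 CPM in WT and 4.2, 3.35 and 3.36 CPM in labelled KO. Groups overlapped on both days, with adjusted p = 0.307 and 0.474. From day 0 to day 1 Uba7 rose by 2.03 ± 0.292 in WT (adjusted p = 2.94e-06) and by 2.45 ± 0.279 in labelled KO (adjusted p = 1.19e-07). On day 3 the groups were just apart, at 4.53, 4.42 and 3.47 CPM in WT and 11.6, 5.9 and 9.11 CPM in labelled KO. On day 6 WT was at 3.65, 4.35 and 3.52 CPM and labelled KO at 19.9, 20.5 and 21.4 CPM, so the groups were far apart (log2 difference 2.42 ± 0.195).

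Ube2l6, the E2 carrier, rose on day 1 in both genotypes and was lower in labelled KO on that day. It measured 24.4 and 22.1 CPM in WT and 20.7, 19.5 and 14.8 CPM in labelled KO on day 0. On day 1 it was 57.9, 58.4 and 61.8 CPM in WT and 44.5, 33.0 and 46.1 CPM in labelled KO. The day 1 groups did not overlap and labelled KO was lower (log2 difference −0.53 ± 0.119, adjusted p = 0.00104), whereas the day 0 difference of −0.34 ± 0.142 missed the threshold (adjusted p = 0.107). The rise from day 0 to day 1 was 1.35 ± 0.141 in WT (adjusted p = 2.65e-08) and 1.17 ± 0.126 in labelled KO (adjusted p = 5.25e-08). On day 3 WT had come down to 39.8, 37.6 and 40.6 CPM while labelled KO was at 48.8, 44.2 and 50.7 CPM, so the order of the groups was the opposite of day 1. On day 6 the WT libraries read 40.1, 45.2 and 37.7 CPM and the labelled KO libraries 42.1, 53.3 and 52.2 CPM, which overlap, at a log2 difference of 0.26 ± 0.119.

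Herc6, the E3 ligase, was the member that was higher in labelled KO before the others. WT libraries gave 3.04 and 2.5 CPM on day 0 and 2.17, 2.38 and 2.22 CPM on day 1, and labelled KO libraries 3.72, 4.16 and 4.26 CPM and then 3.43, 5.48 and 3.09 CPM. No labelled KO library overlapped WT on either day, but the difference passed the test on day 1 (0.83 ± 0.193, adjusted p = 0.00136) and not on day 0 (0.55 ± 0.215, adjusted p = 0.0882). The day 1 difference missed the threshold on log2(TPM + 1) values (0.43, limma adjusted p = 0.0559) and on log2(TPM + 0.1) values (0.61, adjusted p = 0.0626). Without the labelled KO library that stood apart, which had the 5.48 CPM, it was 0.51 (adjusted p = 0.0261). On day 3 WT was at 2.31, 2.6 and 1.78 CPM and labelled KO at 7.92, 6.61 and 7.27 CPM, a log2 difference of 1.70 ± 0.187. On day 6 WT stood at 2.15, 1.77 and 1.97 CPM and labelled KO at 11.8, 14.2 and 14.9 CPM. The WT level of Herc6 on day 6 was below its day 0 level in each library, whereas labelled KO was 3.36-fold above.

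Parp9 and Dtx3l, partners in 1 complex, followed each other across the 23 libraries (Pearson's r of log2 CPM 0.973, over libraries that share groups). Each followed Parp14 as closely (r = 0.974 for Parp9 and 0.979 for Dtx3l), so this was not particular to the pair. The 23 libraries include those whose counts chose these genes, so the correlations are a description only. Parp9 read 7.21 and 6.67 CPM in WT and 5.67, 5.23 and 4.87 CPM in labelled KO on day 0, and on day 6 WT was at 15.8, 16.8 and 14.2 CPM and labelled KO at 44.4, 45.6 and 46.5 CPM. Dtx3l read 5.37 and 6.71 CPM in WT and 5.04, 4.06 and 3.99 CPM in labelled KO on day 0, and on day 6 WT was at 21.7, 21.2 and 24.4 CPM and labelled KO at 56.0, 63.6 and 58.1 CPM. For both genes the labelled KO group lay below WT on day 0 and above it on day 6 without overlap, and the day 0 differences missed the threshold (−0.40 ± 0.164, adjusted p = 0.102 and −0.47 ± 0.172, adjusted p = 0.0648). On day 1 the genotypes overlapped for both: Parp9 was at 12.7, 12.9 and 12.8 CPM in WT and 11.3, 16.5 and 10.5 CPM in labelled KO, the 16.5 coming from the library that stood apart. Dtx3l was at 13.55, 14.97 and 11.02 CPM in WT and 8.98, 12.1 and 11.4 CPM in labelled KO on that day. By day 3 they had separated, Parp9 to 17.9, 18.2 and 17.3 CPM in WT and 32.0, 24.6 and 29.6 CPM in labelled KO, and Dtx3l to 21.2, 21.1 and 18.8 CPM in WT and 33.2, 26.6 and 28.0 CPM in labelled KO. From day 0 to day 1 both rose in WT, by 0.88 ± 0.154 (adjusted p = 4.02e-05) and 1.13 ± 0.158 (adjusted p = 2.06e-06), and in labelled KO, by 1.28 ± 0.14 (adjusted p = 6.62e-08) and 1.31 ± 0.146 (adjusted p = 8.85e-08). The 2 genes lie head to head on chromosome 16 (build GRCm38.p6, Dtx3l at 35926515 to 35939027 on the minus strand, Parp9 at 35938470 to 35972621 on the plus strand) and overlap, with a gap of −558 bases between them. Use of strand in the counting is not given in the sources used here, so reads from the overlap cannot be told apart.

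Parp12 and Parp14, the mono-ADP-ribosyltransferases, started from different levels. Parp12 measured 20.3 and 17.1 CPM in WT and 15.3, 14.5 and 15.6 CPM in labelled KO on day 0, and on day 1 the values were 24.5, 25.9 and 24.1 CPM in WT and 24.5, 24.8 and 28.0 CPM in labelled KO. It was not called between genotypes on day 0 (−0.30 ± 0.118, adjusted p = 0.0817) or day 1 (0.05 ± 0.101, adjusted p = 0.702). On day 3 WT was at 23.3, 23.9 and 19.7 CPM and labelled KO at 46.1, 35.4 and 40.3 CPM, without overlap. On day 6 WT was at 16.2, 17.7 and 17.3 CPM and labelled KO at 51.7, 58.6 and 61.7 CPM. Parp12 rose on day 1 by 0.41 ± 0.116 in WT (adjusted p = 0.00453) and by 0.77 ± 0.104 in labelled KO (adjusted p = 1.63e-06). The WT call rests on the second WT library of day 0: without it the change was 0.29 (adjusted p = 0.116).

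Parp14 stood at 1.85 and 1.48 CPM in WT and 0.590, 0.747 and 0.602 CPM in labelled KO on day 0. On day 1 it was 3.27, 3.9 and 3.55 CPM in WT and 2.03, 2.85 and 2.24 CPM in labelled KO. Both pairs of groups were apart, with log2 differences of −1.36 ± 0.347 (adjusted p = 0.0074) and −0.59 ± 0.22 (adjusted p = 0.0358). The day 0 call was lost without the first WT library of day 0 (−1.17, adjusted p = 0.121) and on log2(TPM + 1) values (−0.25, limma adjusted p = 0.324), and the day 1 difference kept its sign and missed the threshold in 8 alternatives. On day 3 the order had turned, with 6.84, 5.98 and 4.29 CPM in WT and 18.6, 12.8 and 10.7 CPM in labelled KO. On day 6 WT gave 7.26, 5.32 and 6.92 CPM and labelled KO 39.5, 42.9 and 36.5 CPM, a log2 difference of 2.61 ± 0.175. Parp14 lies on chromosome 16 at 35831892 to 35871518, 54996 bases from Dtx3l.

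Rnf213, the large ubiquitin ligase, gave too few counts to follow. Its row held 1 to 31 counts per library, and the groups overlapped on all 4 days, at 10, 2 and 10 counts in WT and 31, 9 and 14 counts in labelled KO on day 6. Count and TPM together implied a transcript length of 402 nucleotides (range 387 to 413 over 17 libraries), whereas the GENCODE M21 transcripts of Rnf213 run from 2422 to 16716 nucleotides. The row thus covers a shorter model than any of those transcripts. Labelled KO held 7, 3 and 5 counts on day 0 and 7, 15 and 4 on day 1, and WT 5 and 2 and then 5, 5 and 5. The differences of 0.53 ± 0.861 on day 0 (adjusted p = 0.76) and 0.81 ± 0.656 on day 1 (adjusted p = 0.34) belong to that short model.

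**Figure D1:**
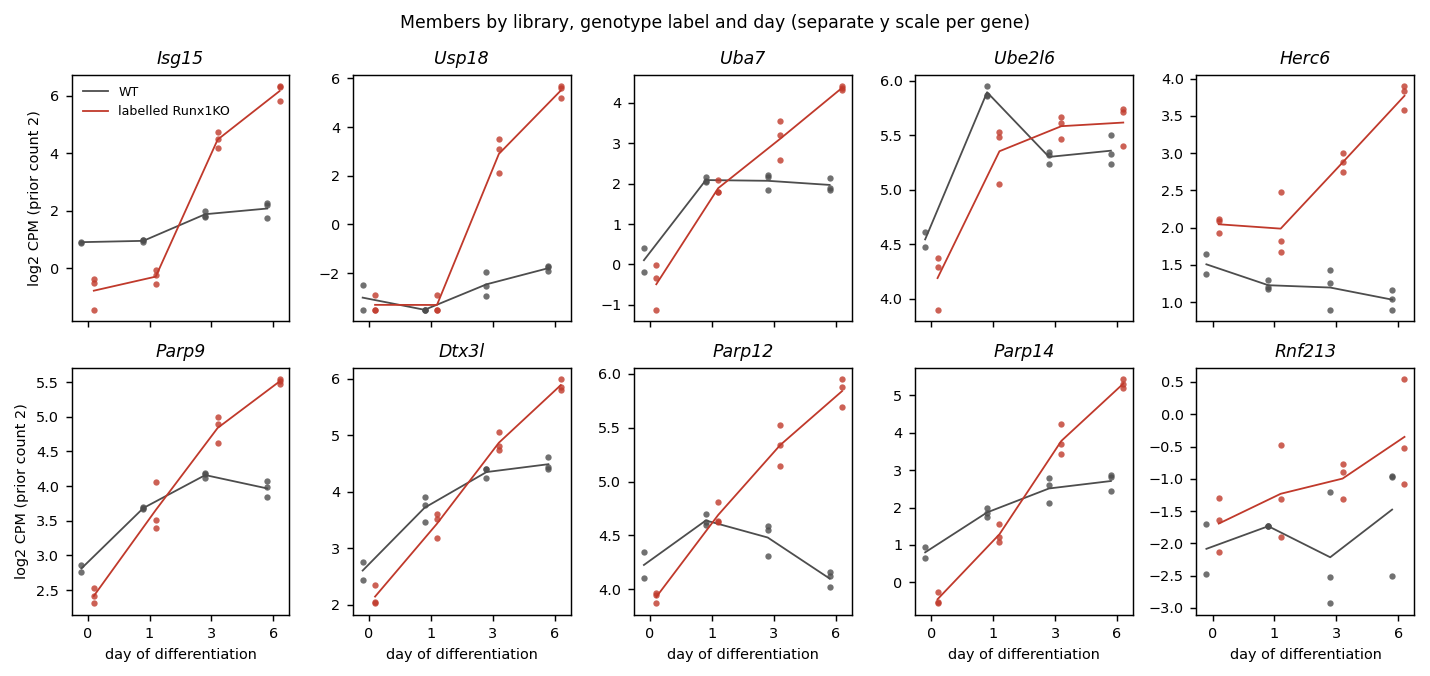
Log2 CPM (prior count 2) of each of the 10 genes by day of differentiation, on a separate scale per gene, with 1 point per library (WT grey, labelled KO red) and lines through the group means. Isg15 and Parp14 show labelled KO below WT on days 0 and 1 and above it on days 3 and 6, and Ube2l6 shows overlapping groups on day 6.

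Across the set, 2 of the 9 genes other than Usp18 (Rnf213, with few counts, among the 9) differed between genotypes on day 0, both lower in labelled KO (Isg15 and Parp14), when 17.5% of all genes tested were called (7.36% higher and 10.1% lower). On day 1, 1 of the 9 was higher (Herc6) and 3 were lower (Isg15, Ube2l6 and Parp14), when 42.2% of all genes were called (22.9% higher and 19.2% lower). The median log2 difference of the 9 genes was −0.40 on day 0 and −0.20 on day 1, beside −0.00 and 0.03 over all genes. Of the 9, 6 lay lower in labelled KO without overlap on day 0 and 1 (Herc6) higher, against 26.6% and 25.1% of all genes. Without the labelled KO library of day 1 that stood apart the called genes on day 0 were Isg15, Ube2l6, Parp9 and Parp14 lower and Herc6 higher, with 24.4% of all genes called. Without the first WT library of day 0, 1 gene (Isg15) was called on that day. On day 1 without the library that stood apart they were Isg15, Ube2l6, Dtx3l and Parp14 lower and Herc6 higher, with 38.6% called. The day 1 differences without it were −1.20 for Isg15 (adjusted p = 0.00619), −0.41 for Ube2l6 (0.00353), −0.76 for Parp14 (0.0219), −0.39 for Dtx3l (0.0315), −0.25 for Parp9 (0.0566), 0.51 for Herc6 (0.0261), 0.06 for Parp12 (0.701), −0.16 for Uba7 (0.616) and 0.19 for Rnf213 (0.870).

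On days 3 and 6 a gene was counted when the groups did not overlap and the fold was at least 2, and no test was run. By that rule labelled KO had the higher values of 5 genes on day 3 (Isg15, Usp18, Uba7, Herc6 and Parp14) and the lower of 0, beside 5.52% higher and 6.29% lower over all genes. On day 6 it had the higher values of 8, all but Ube2l6 and Rnf213, and the lower of 0, beside 6.77% and 5.74%. Those shares chose the set, so nothing is read from them. The median log2 difference was 1.20 on day 3 and 2.09 on day 6, beside 0.04 and 0.00 over all genes. On day 6 the log2 difference was 2.79 ± 0.186 for Herc6, 1.75 ± 0.102 for Parp12, 1.55 ± 0.122 for Parp9 and 1.40 ± 0.119 for Dtx3l.

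**Figure D2:**
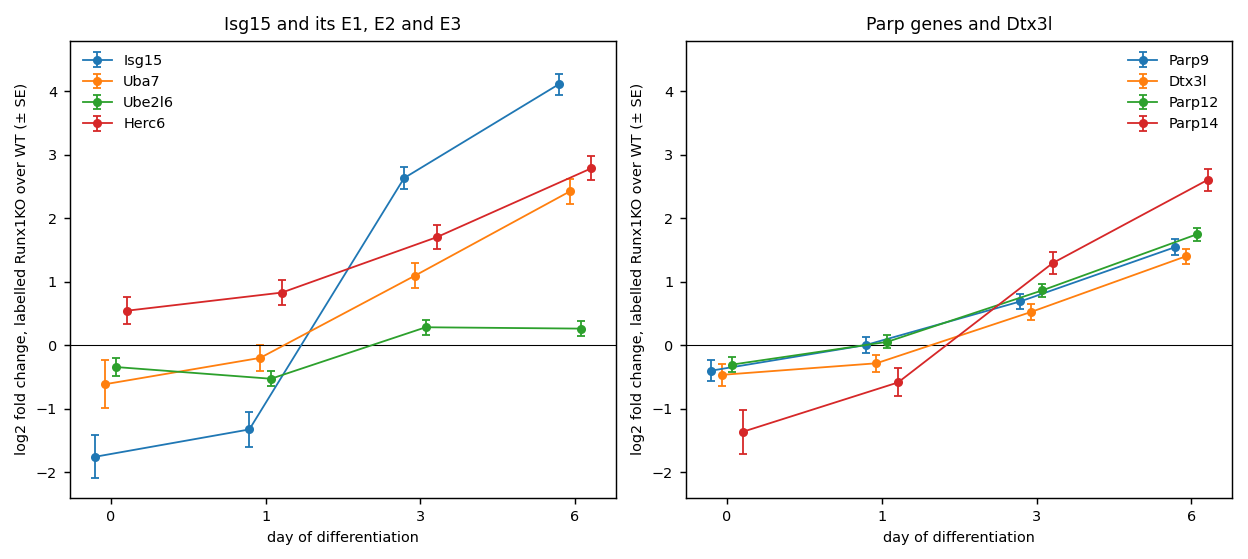
Log2 difference of labelled KO over WT with its SE on days 0, 1, 3 and 6, for Isg15 and its conjugating enzymes at the left and for the Parp genes and Dtx3l at the right, without Rnf213, which had few counts, and Usp18, which had few before day 3. Isg15 goes from −1.76 on day 0 to 4.11 on day 6, and Ube2l6 is the nearest to 0 of the 8 genes drawn on days 3 and 6, at 0.28 and 0.26.

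The first day after serum withdrawal moved 6 of the 9 genes upward in WT and 6 of 9 in labelled KO, in each case Uba7, Ube2l6, Parp9, Dtx3l, Parp12 and Parp14, and none downward. Without the labelled KO library of day 1 that stood apart, these 6 were also the ones called in labelled KO, with 53.7% of all genes called in either direction, at log2 changes of 2.51 for Uba7, 1.31 for Ube2l6, 1.06 for Parp9, 1.23 for Dtx3l, 0.80 for Parp12 and 1.72 for Parp14. Over all genes 27.1% rose and 27.6% fell in WT, and 27.2% rose and 25.2% fell in labelled KO. Isg15 was not called in either genotype (0.05 ± 0.269, adjusted p = 0.899 in WT and 0.48 ± 0.369, adjusted p = 0.29 in labelled KO), nor was Herc6 (−0.30 ± 0.224, adjusted p = 0.274 and −0.01 ± 0.183, adjusted p = 0.97). In labelled KO the step of Isg15 was called on log2(TPM + 0.1) values (0.698, limma adjusted p = 0.0106) and on log2(TPM + 1) values (0.44, limma adjusted p = 0.027). The median change of the 9 genes was 0.88 in WT and 1.17 in labelled KO, beside 0.02 and 0.04 over all genes. The genotype-by-time interaction at day 1 called 0 of the 9 in edgeR's test, with a lowest adjusted p of 0.218 (Parp12, interaction 0.36 ± 0.155), when 3.95% of all genes were called. Without the library that stood apart it called 0 of the 9, when 4.07% were called. At an unadjusted p under 0.05 it named 1 of the 9, beside 2559 of the 14187 genes, and DESeq2 called 0 of the 9, beside 833 of all genes.

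After day 1 most of the day-to-day differences of the set lay in the labelled KO libraries. Between days 1 and 3, Isg15, Usp18, Uba7, Parp9, Dtx3l and Parp14 were at least 2-fold higher without overlap in labelled KO, beside 5.42% of all genes. Between days 3 and 6, Isg15, Usp18, Uba7, Dtx3l and Parp14 were, beside 7.37%. In WT, 1 of the 10 met that rule between days 1 and 3, beside 4.24%, namely Usp18 with 2, 1 and 4 counts against 0 in each library. Between days 3 and 6, 0 of the 10 met it in WT, beside 2.4%. Relative to its own day 6 level in labelled KO, the day 3 mean was 97.3% for Ube2l6, 70.8% for Parp12, 63.1% for Parp9, 53.3% for Herc6, 49.4% for Dtx3l, 43.0% for Uba7 and 35.4% for Parp14. Over the whole course from day 0 to day 6, 6 of the 10 met the rule upward in WT (Isg15, Usp18, Uba7, Parp9, Dtx3l and Parp14), beside 17.2% of all genes, and 10 of 10 in labelled KO, beside 18.8%. Of these, Usp18 in WT had 2 and 0 counts on day 0 and 5, 4 and 5 on day 6. Rnf213 in labelled KO had 7, 3 and 5 counts on day 0 and 31, 9 and 14 on day 6. Both lie near the floor of 3 counts, so little rests on them. The mean of day 6 over that of day 0 was 61.3-fold in labelled KO and 3.91-fold in WT for Parp14, 31.3-fold and 3.80-fold for Uba7, 13.6-fold and 3.71-fold for Dtx3l, 8.66-fold and 2.25-fold for Parp9 and 2.68-fold and 1.76-fold for Ube2l6.

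Levels per length, in TPM (transcript abundance scaled by transcript length and depth), show how the makeup of the system differed. In WT on day 6 Ube2l6 led at 59.6 ± 1.93 TPM (SD, n = 3), followed by Isg15 at 13.0 ± 1.66, Parp12 at 9.72 ± 0.962, Parp9 at 8.06 ± 0.0608 and Dtx3l at 7.97 ± 1.33, of which Parp9 and Dtx3l overlapped. Uba7 was at 3.04 ± 0.787, and Parp14 at 1.60 ± 0.354, Herc6 at 1.51 ± 0.235 and Rnf213 at 1.51 ± 0.981 overlapped, with Usp18 last at 0.22 ± 0.0361. In labelled KO on day 6 Isg15 led at 205 ± 31.0 TPM, followed by Ube2l6 at 65.3 ± 5.67, Usp18 at 45.7 ± 6.26, Parp12 at 29.8 ± 1.34, Parp9 at 21.5 ± 0.575 and Dtx3l at 19.1 ± 1.20. The last places went to Uba7 at 12.4 ± 1.58, Parp14 at 8.85 ± 0.850, Herc6 at 6.97 ± 0.410 and Rnf213 at 3.40 ± 2.34, and no neighbours in this order overlapped. Usp18 thus moved from the last place in WT to the third in labelled KO.

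**Figure D3:**
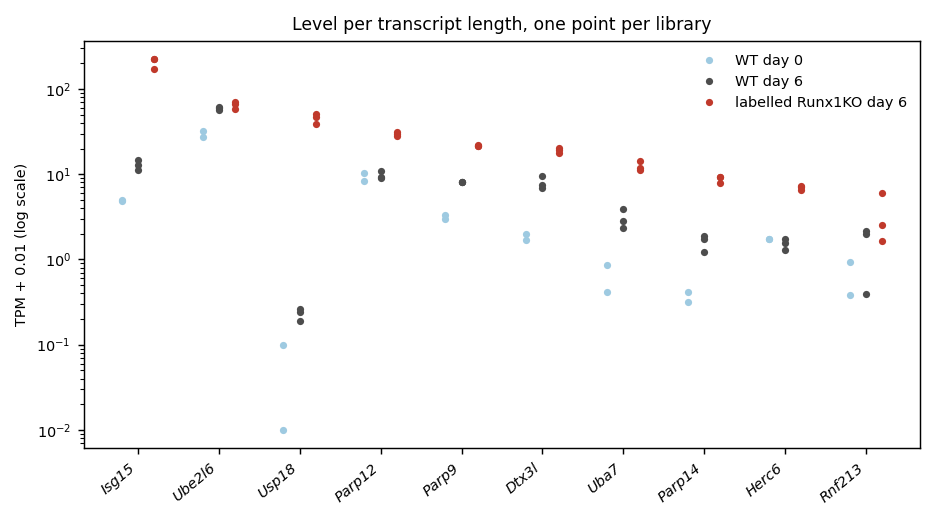
TPM plus 0.01 of the 10 genes on a log axis, with 1 point per library of WT day 0, WT day 6 and labelled KO day 6. Ube2l6 is the highest of the 10 in WT on day 6 at 59.6 TPM, and Isg15 the highest in labelled KO at 205 TPM.

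The ratio of Isg15 to Ube2l6, modifier to carrier, was 0.165 in WT and 0.0591 in labelled KO on day 0 (TPM ratio, group means). It was 0.0668 and 0.0385 on day 1. On day 3 it was 0.196 ± 0.0161 in WT and 0.996 ± 0.146 in labelled KO, and on day 6 it was 0.218 ± 0.0345 and 3.14 ± 0.235 (SD, n = 3). The summed TPM of the 10 genes was 52.6 in WT and 38.5 in labelled KO on day 0, 119 and 88.9 on day 1, 103 and 189 on day 3, and 106 and 419 on day 6.

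The members moved together across libraries to different extents. The 23 libraries include those whose counts chose the members, and that choice can itself raise the correlations between them. The correlations below are therefore a description only, and nothing is read from their height. Pearson's r of log2 CPM with the mean of the other members, over 23 libraries that share groups and days, was 0.961 for Parp9, 0.954 for Parp14, 0.946 for Uba7, 0.918 for Isg15, 0.917 for both Dtx3l and Parp12 and 0.894 for Usp18. It was 0.674 for Herc6, 0.595 for Ube2l6 and 0.577 for Rnf213. The closest pair was Dtx3l and Parp14 (r = 0.979) and the least close was Ube2l6 and Herc6 (r = 0.106). Outside the set, the genes whose profiles were most like the members' mean were Stat2 (r = 0.988), Samd9l (0.986), Ifi27l2a (0.984), H2-T24 (0.979) and Oasl2 (0.978). For 9 of the members, the single most alike gene was Oasl2 for Isg15 (0.982), Parp10 for Uba7 (0.985), Pnrc1 for Ube2l6 (0.955), Cmpk2 for Herc6 (0.968), Samd9l for Parp9 (0.983), Ldb3 for Dtx3l (0.983), Ifi35 for Parp12 (0.947), Ddx58 for Parp14 (0.988) and Ephx4 for Rnf213 (0.797).

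The wider pathway was followed in lists of 84 genes, of which 74 were tested. By the rule of no overlap and at least 2-fold, 10 of the 74 were higher in labelled KO on day 6 and 0 lower, beside 6.77% and 5.74% of all genes. They were 2 of 12 other genes of Isg15 conjugation, removal and the receptor that Usp18 binds, Stat2 (a carrier of the interferon signal, log2 difference 2.08 ± 0.0993) and Trim25 (a ubiquitin ligase of the RIG-I pathway, 1.41 ± 0.0762), 1 of 13 other Parp genes (Parp10, 1.61 ± 0.102), 4 of 8 other interferon-inducible ligases and 3 of 7 interferon signalling genes. The ligases were Trim30a (6.03), Trim14 (3.40), Trim34a (2.89) and Trim21 (2.24), and the signalling genes included the transcription factors Irf7 (4.67) and Irf9 (2.38). The general ubiquitin-like proteins, the E1 enzymes other than Uba7 and the Herc, Deltex and ADP-ribose removal genes gave 0 of 13, 8, 4, 3 and 5 by this rule, with medians from 0.02 to 0.37, and Ube2l3, the paralog of Ube2l6, was at 0.21. Trim30a and Trim34a belong to a family of near copies, and how reads were shared among them is uncertain.

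On days 0 and 1 the lists gave calls in both directions, as did all genes. Labelled KO was higher than WT on day 0 for 5 of the 74 (Ube2e2, Skp2, Uba2, Sae1 and Dtx4) and lower for 3, among them Rnf135 (−0.70 ± 0.157, adjusted p = 0.00246) and Parp8 (−0.28 ± 0.0897, adjusted p = 0.0337), beside 7.36% higher and 10.1% lower over all genes. On day 1, 23 of the 74 were higher and 17 lower, beside 22.9% and 19.2%. The 17 include Trim30a and Trim34a, which had few counts on that day. Irf7 was lower on day 1 (log2 difference −1.49 ± 0.273, adjusted p = 0.000137), at 2.34 to 2.88 CPM in WT and 0.712 to 1.25 CPM in labelled KO, and on day 6 it stood at 3.61 to 5.76 CPM in WT and 105 to 138 CPM in labelled KO. Of the 8 other interferon-inducible ligases 6 were lower on day 1, among them Trim21 (−0.80 ± 0.239, adjusted p = 0.00949), and Trim30a and Trim34a with at most 5 counts in any library of that day. Trim30a and Trim34a passed the low-count filter mainly through labelled KO on days 3 and 6, so nothing is read from their day 1 calls. Ifnb1, Ifna2, Ifna4 and Ifng did not pass the filter. Ifnb1 had at most 1 count, Ifna2 and Ifna4 had 0 counts in all 23 libraries, and Ifng reached 8 counts in 1 labelled KO library of day 6.

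**Figure D4:**
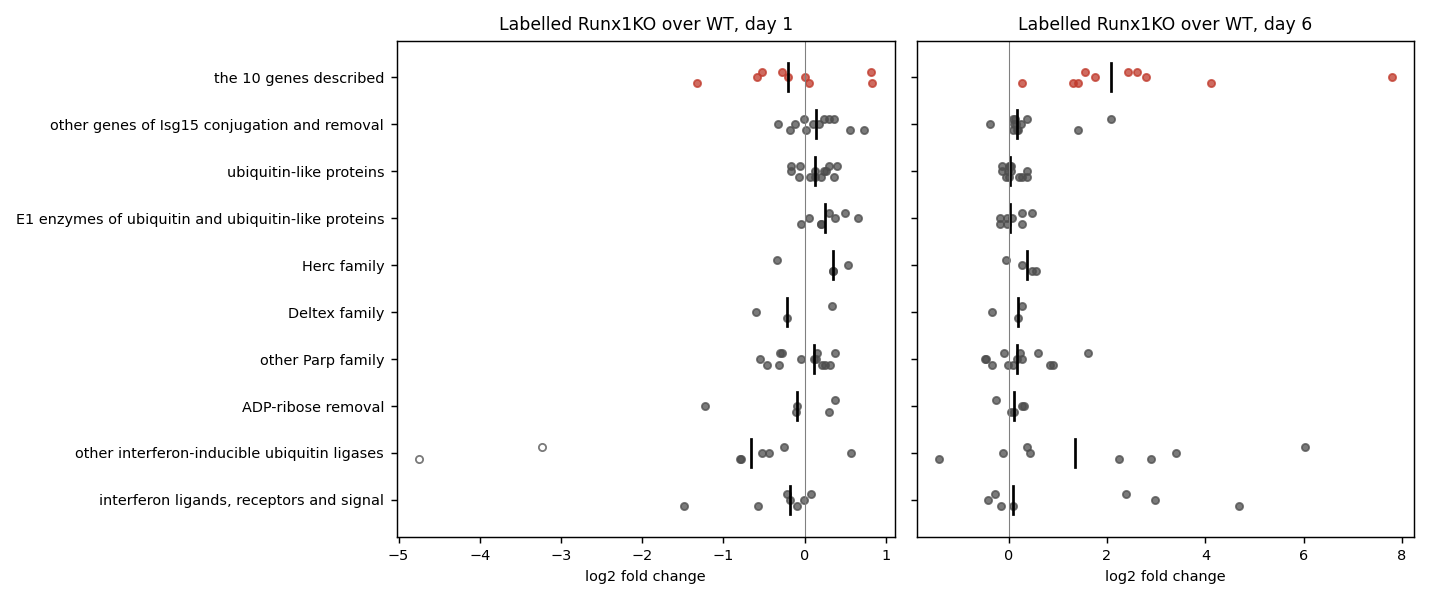
Log2 difference of labelled KO over WT for every tested gene of each list, on day 1 and on day 6, with a vertical mark at each list's median. The 10 genes described are in the top row (Usp18 is left out on day 1), and open circles mark genes with at most 3 counts in every library of 1 of the groups. On day 6 the described genes and parts of the ligase and signalling lists lie to the right, while the medians of the general ubiquitin-like and E1 lists lie at 0.02 and that of the Herc list at 0.37.

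On build GRCm38.p6 the other members lie apart from one another: Usp18 at chr6:121245906-121270917, Uba7 at chr9:107975567-107984056, Ube2l6 at chr2:84798828-84810003, Herc6 at chr6:57580992-57665136, Parp12 at chr6:39086412-39118349 and Rnf213 at chr11:119389950-119487418. Genes next to the members were compared as positional context. Of 16 neighbours outside the set 11 were tested, with a median log2 difference of 0.25 on day 6. Agrn, beside Isg15 on chromosome 4 (member at 156199424 to 156200818), was at 222.8 ± 10.2 CPM in labelled KO and 88.8 ± 10.4 in WT (1.33 on the log2 scale), and Serping1, beside Ube2l6, was lower at 1.31 ± 0.356 against 2.89 ± 0.202 CPM (−1.14). Around the cluster of Parp14, Dtx3l and Parp9, Kpna1 differed by 0.66 and Hspbap1 by 0.42.

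Marker lists of other cell types and of muscle were read beside these results, and 4 of the 5 lists were apart between genotypes on day 6. The summed CPM of 10 leukocyte markers was 10.7 to 12.6 in labelled KO and 4.91 to 8.21 in WT on day 6, and at most 3.69 in any library of the other days. Most of the higher sum was 1 gene, Cd68, at 10.7 ± 1.09 CPM in labelled KO and 3.32 ± 1.26 in WT (SD, n = 3), whereas Csf1r of the same list was lower in labelled KO, at 0.567 ± 0.0812 against 2.34 ± 0.628 CPM, and Adgre1 and Tyrobp were at 0 in all 23 libraries and Ptprc had at most 1 count. The summed muscle markers (7 genes) were 10322 to 12451 CPM in labelled KO and 3056 to 3250 CPM in WT on day 6. Acta1 was most of the labelled KO sum, at 6046 to 7430 CPM against 975 to 1153 CPM in WT. Myf5 of this list was lower in labelled KO on day 6, at 25.5 to 27.9 against 30.7 to 36.6 CPM, and the others were higher without overlap. The 5 fibroblast and adipogenic markers, mainly Col1a1, were 925 to 970 CPM in labelled KO against 5473 to 7603 CPM in WT on day 6. The sum of these 5, which was mostly Col1a1, was lower in labelled KO on the earlier days too. It came to 21.6 to 28.5 CPM against 398 to 439 CPM in WT on day 0, 75.1 to 112 against 1471 to 1669 CPM on day 1, and 258 to 509 against 5126 to 5803 CPM on day 3. The muscle markers summed to 2068 to 2164 CPM in labelled KO and 1424 to 1483 CPM in WT on day 0, and to 5111 to 7678 and 3367 to 3525 CPM on day 3. On day 1 the sum, mostly Des, overlapped at 1776 to 2325 and 1821 to 1939 CPM, but single markers were apart. Myog, a differentiation factor, was at 27.9 to 41.0 CPM in labelled KO and 5.05 to 18.0 CPM in WT, Ckm, Myh3 and Acta1 were likewise higher without overlap, and Myf5, a myoblast factor, was lower at 26.4 to 29.0 against 51.3 to 53.8 CPM. The 4 endothelial markers overlapped on day 6, at 0.523 to 0.731 CPM in labelled KO and 0.503 to 1.25 CPM in WT. The 3 epithelial markers summed to 0.441 to 2.44 CPM against at most 0.129 CPM on day 6 and to 1.76 to 1.93 against 0.127 to 0.427 CPM on day 1, where Krt8 was most of the sum and Epcam was at 0. The part of these differences in the values of the 10 genes was not tested.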

How the data were processed

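Estimated counts and TPM of 23 libraries were deposited by the authors as gene tables, the expected counts as whole numbers. Per the submitters' processing notes, Bowtie2, RSEM and the build mm10 were used. Versions, annotation and strand use are not given in the sources used here. In the deposited TPM table every library has the same total.

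Libraries were grouped by the labels. The deposited counts, rounded (which changed no value), were tested with the quasi-likelihood test of edgeR 4.0.16 in R 4.3.3, with TMM scaling, filterByExpr (minimum count 10, minimum total 15), 1 group-means model over all libraries and Benjamini-Hochberg adjustment over 14187 genes at 0.05. CPM use the TMM-scaled library size. Log2 CPM for correlations used a prior count of 2. Limma 3.58.1 and DESeq2 1.42.0 served as alternatives. Standard errors come from the F statistic. On simulated data for labelled KO against WT on day 1, with 200 of 14187 genes changed, 81% were recovered at an absolute log2 change of 1 and 92% at 2, and 5.98% of calls were false. The simulation changed far fewer genes than the 5981 called on day 1 and was given no library that stood apart. Its shares may therefore not carry over to these data.

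The members and lists were chosen with earlier results of these data known. Named genes are the 10 members, Runx1, at most 3 genes per list by day 6 difference, list genes called on day 0, neighbours and the most alike profiles; the list genes of day 1, the fourth ligase, the interferon genes and Cd68 were named after their values were seen. Neighbours and promoters come from RefSeq and transcript lengths from GENCODE M21. The floor of 3 counts covers counting error only. The values of 1 listed gene are not reported here.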

Additional observations from a re-analysis of the deposited data

Results flagged for a closer look

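In 6 genes every labelled KO library lay below every WT library on day 0 and above every WT library on day 6, or on day 3 for Ube2l6, whose day 6 groups overlapped. Over all 14187 genes, 2.78% showed this order of the groups on days 0 and 6 and 2.83% on days 0 and 3. Since the late values chose the genes, nothing is read from the comparison. The log2 difference of labelled KO over WT was higher on day 6 than on day 0 by 5.87 for Isg15, 3.97 for Parp14, 2.05 for Parp12, 1.95 for Parp9 and 1.87 for Dtx3l, and higher on day 3 than on day 0 by 0.63 for Ube2l6. The difference between the days was not tested, because the day 3 and day 6 values chose the genes. Of these 6 genes, only Isg15 and Parp14 passed edgeR's test on day 0.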

How the results depend on the processing

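The number of the 9 genes called between genotypes on day 0 was 2, and 5 when counts were scaled by library size alone. Leaving out 1 library at a time gave 1 to 5, with 5 without labelled KO replicate 2 of day 1 and 1 without WT replicate 1 of day 0. On day 1 the number was 4, and 2 on log2(TPM + 1) and 2 on log2(TPM + 0.1) values, with 3 to 5 when 1 library was left out. On day 3 it was 5 of 10, and 2 on log2(TPM + 1) values, a scale that shrinks the folds of low genes. Leaving out 1 library gave 5 to 6 for the WT step from day 0 to day 1, 6 to 6 for the labelled KO step, 0 to 0 for the interaction, 4 to 6 on day 3 and 8 to 9 on day 6. On both TPM scales the labelled KO step gave 7 of the 9, with Isg15 added.

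Reversed signs were seen only for differences that passed no test. Parp9 on day 1 was 0.003, and −0.016 with DESeq2, −0.016 with RLE, −0.035 with library size alone, −0.067 on log2(TPM + 0.1), −0.055 on log2(TPM + 1), −0.039 at a mean count of at least 50, −0.013 without a filter, −0.019 with only the groups compared and −0.0023 with the replicate block. With 1 library left out it ran from −0.252 (without labelled KO replicate 2 of day 1) to 0.127. Herc6 from day 0 to day 1 in labelled KO was −0.012, and 0.079 with library size alone, 0.106 on log2(TPM + 0.1), 0.092 on log2(TPM + 1) and −0.305 to 0.144 with 1 library left out. With 1 library left out, Parp12 on day 1 ran from −0.011 to 0.089 and Rnf213 in the WT step, at 0.42 with all libraries, from −0.049 to 1.20. The cause was not tested.

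The calls of Isg15 on days 0 and 1 and of Ube2l6 on day 1 held in each of the 33 alternatives. Over all genes the calls on day 0 were 2479, and 1443 at an adjusted p of 0.01. On day 1 they were 5981, and 3607 with only the groups compared. For the interaction they were 560, and 197 at 0.01 and 239 with only the groups compared. By the rule for days 3 and 6 they were 1675 and 1774, against 731 and 932 on log2(TPM + 1) values and 827 and 848 at a mean count of at least 50.

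The replicate numbers did not pair the libraries. The correlation of same-numbered libraries' deviations from their group means ran from −0.481 to 0.152. With the replicate block the counts of called members were 2, 4, 6, 6, 0, 5 and 8, and no count differed from that without it. Low counts limit Rnf213 throughout and Usp18 in all WT libraries and in labelled KO before day 3.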
